A study of Mus musculus with 16 samples.

Results

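The comparison described here is the effect of the Tau+ genotype on the hippocampus of mice that lack Ch25h. It set 4 libraries labelled Ch25h-/- Tau+ against 4 labelled Ch25h-/- Tau-, which are 8 of the 16 libraries of the series and were chosen by their labels alone. All were from nuclei of the hippocampus of female mice aged 9 months, so both groups share the Ch25h deletion and differ in the Tau label. The other 8 libraries, labelled Ch25h+/+ and split 4 against 4 in the same way, were used to compare the tau effect between the Ch25h genotypes, and they also entered the clustering and the shared estimate of spread. The labels neither name the tau line, its transgene or its promoter, nor the Ch25h allele, and they give no preparation date, so a tau effect here is any difference between mice with these labels. The labels give each library its own sample name but do not say that each came from a separate mouse, so the p-values measure the spread between these samples. Barcodes counted as nuclei held at least 500 unique molecular identifiers (UMIs, 1 per captured RNA molecule) and 300 genes, with at most 5% of UMIs from mitochondrial genes. That rule kept 72115 barcodes in these 8 libraries, and 66871 remained after removal of likely doublets, of 136828 in all 16. Attention is given to oligodendrocyte precursor cells (OPCs), to excitatory neurons outside the CA fields and dentate gyrus, and to the vascular classes.

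Ch25h encodes cholesterol 25-hydroxylase, which makes 25-hydroxycholesterol. This oxysterol holds back the transcription of cholesterol synthesis genes and activates liver X receptors, and Ch25h is itself a target of type I interferon in myeloid cells. Tau, the product of Mapt, binds microtubules and aggregates in neurons in the tauopathies. OPCs are the dividing glia that give rise to myelinating oligodendrocytes, and they can express interferon-stimulated genes and genes of antigen presentation in inflamed tissue. Endothelial cells form the blood-brain barrier, mural cells (pericytes and smooth muscle) wrap the vessel, and fibroblasts lie in the meninges and around larger vessels.

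The 8 libraries held 7601 to 9459 nuclei each. The typical nucleus of a library (its median) had between 3814 and 6135.5 UMIs from between 1911 and 2745 genes. Any pair of libraries shared 12 to 27 cell barcodes, at most 0.347% of the smaller library. The deleted gene was nearly absent in every library, whatever its Ch25h label. In the sum of all nuclei Ch25h was at 0.444 ± 0.105 CPM (UMIs of the gene scaled to a common library total) in Ch25h-/- Tau+ and 0.355 ± 0.102 in Ch25h-/- Tau- (SD, n = 4), against 0.472 ± 0.197 and 0.211 ± 0.041 in the Ch25h+/+ counterparts. The 93 and 75 UMIs behind the Ch25h-/- values do not show whether the counted part of the transcript lies inside the deleted part, so the Ch25h labels were not checked by them. The tau label was separated by the long non-coding RNA Gm43049 (chr3:140692038-140760704, GRCm38), at 75.5 ± 3.5 CPM in Tau+ and 0.0625 ± 0.0742 in Tau-. In 7 of the 12 classes tested, the first principal component placed all 16 libraries by replicates 1 and 2 against 3 and 4, a split for which the labels give no name. Values within each side of this split are given beside several of the results.

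In OPCs, 8 genes changed. The long non-coding RNA Gm43049, the interferon signalling factor Irf9, the mono-ADP-ribosyltransferase Parp11, the prion protein gene Prnp and the long non-coding RNA Pvt1 were higher in Tau+, and Ccbe1, Pcdh11x and Nav2 were lower. By edgeR's quasi-likelihood test with Benjamini-Hochberg adjustment these are 0.0843% of the 9487 genes tested, 5 higher (0.0527%) and 3 lower (0.0316%). The class held 1887 nuclei, 163 to 301 per library. The 10 OPC markers, by which the class was named, summed to 17600 to 20300 CPM. Pdgfra, the receptor that marks OPCs, was at 742 to 1050 CPM in Tau+ and 810 to 1080 in Tau-.

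Irf9 is the DNA-binding subunit of the complex that carries the type I interferon signal to the genome. In OPCs it was at 40.6, 17.5, 17.0 and 29.0 CPM in the Tau+ replicates 1 to 4 and at 5.59, 2.98, 2.99 and 3.59 in the Tau- replicates. Every Tau+ library was above every Tau- library, and Tau+ replicate 1 was the highest. The log2 fold change was 2.79 ± 0.48 (SE, edgeR adjusted p = 0.00622), from 86 and 10 UMIs, so the counting error of the Tau- level is large. It was 2.83 in replicates 1 and 2 and 2.71 in replicates 3 and 4. The call was lost without Tau+ replicate 1 or without Tau- replicate 4, with the highest edgeR adjusted p at 0.0594. Irf9 was also called in microglia (log2 fold change 1.22, edgeR adjusted p = 0.00774). In astrocytes it was called in Ch25h+/+ (1.31, edgeR adjusted p = 0.0414) and not in Ch25h-/- (1.09, edgeR adjusted p = 0.147).

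Parp11 was at 86.2, 85, 66.9 and 99.2 CPM in Tau+ and 35.4, 19.4, 31.4 and 37.1 in Tau-. The groups did not overlap, and the log2 fold change was 1.44 ± 0.25 (SE, edgeR adjusted p = 0.00676). Without Tau+ replicate 1 the call was lost, at an edgeR adjusted p of 0.0538. Outside OPCs Parp11 was not called in any of the 9 other classes that tested it, and its log2 fold change there was between 0.03 in inhibitory neurons and 0.55 in astrocytes.

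Prnp encodes the cellular prion protein, a membrane-anchored protein of neurons and glia. It was at 96.1, 67.5, 134 and 151 CPM in the OPCs of the Tau+ replicates and 31.7, 59.7, 40.4 and 56.3 in those of the Tau- replicates. Tau+ replicate 2 came near the highest Tau- library, and the others lay well above. The log2 fold change was 1.22 ± 0.20 (SE, edgeR adjusted p = 0.00522), with 0.83 in replicates 1 and 2 and 1.53 in replicates 3 and 4, and the call held without any 1 library. Barcodes of at most 100 UMIs, which hold mostly free RNA, had Prnp at 380 CPM in both groups, above every OPC value and equal between the groups.

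Pvt1 was at 92.1, 128, 73.4 and 79.3 CPM in Tau+ and 52.1, 38.8, 41.9 and 38.3 in Tau-. All Tau+ libraries were higher, with a log2 fold change of 1.14 ± 0.21 (SE, edgeR adjusted p = 0.00676). The call was lost without Tau+ replicate 2 or Tau- replicate 4, where the edgeR adjusted p reached 0.102. Pvt1 was also called in microglia (log2 fold change 0.74, edgeR adjusted p = 0.0217). In astrocytes it was called in Ch25h+/+ (1.22, edgeR adjusted p = 0.0225) and not in Ch25h-/- (0.94, edgeR adjusted p = 0.147). In OPCs Gm43049 was at 76.3, 79.6, 82.6 and 70.2 CPM in Tau+ and had no UMI in any Tau- library, which makes it at least 70.4-fold higher against a floor of 3 UMIs over the group.

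The calls of the 3 genes that fell in OPCs were lost in most of the fits that left out 1 library. Ccbe1, a secreted protein needed for the growth of lymphatic vessels, was at 35.7, 18.9, 31.5 and 38.1 CPM in Tau+ and 72.6, 55.2, 79.3 and 61.1 in Tau-, a log2 fold change of -1.10 ± 0.22 (SE, edgeR adjusted p = 0.0269). Pcdh11x, a protocadherin on the X chromosome, was at 637, 618, 754 and 577 CPM in Tau+ and 994, 970, 754 and 878 in Tau-, a log2 fold change of -0.47 ± 0.10 (SE, edgeR adjusted p = 0.0379). Nav2, a cytoskeletal protein of growing neurites, was at 1030, 989, 1090 and 1010 CPM in Tau+ and 1380, 1270, 1320 and 1370 in Tau-, a log2 fold change of -0.38 ± 0.08 (SE, edgeR adjusted p = 0.0335). The groups touched at 754 for Pcdh11x and did not overlap for Ccbe1 and Nav2. Of the 8 fits that each left out 1 library, Ccbe1 was called in 2 (without Tau+ replicate 4 or Tau- replicate 2), Pcdh11x in 2 (without Tau+ replicate 3 or Tau- replicate 3) and Nav2 in 1 (without Tau+ replicate 3). The highest edgeR adjusted p among these fits was 0.207 for Ccbe1, 0.306 for Pcdh11x and 0.207 for Nav2.

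**Figure D1:**
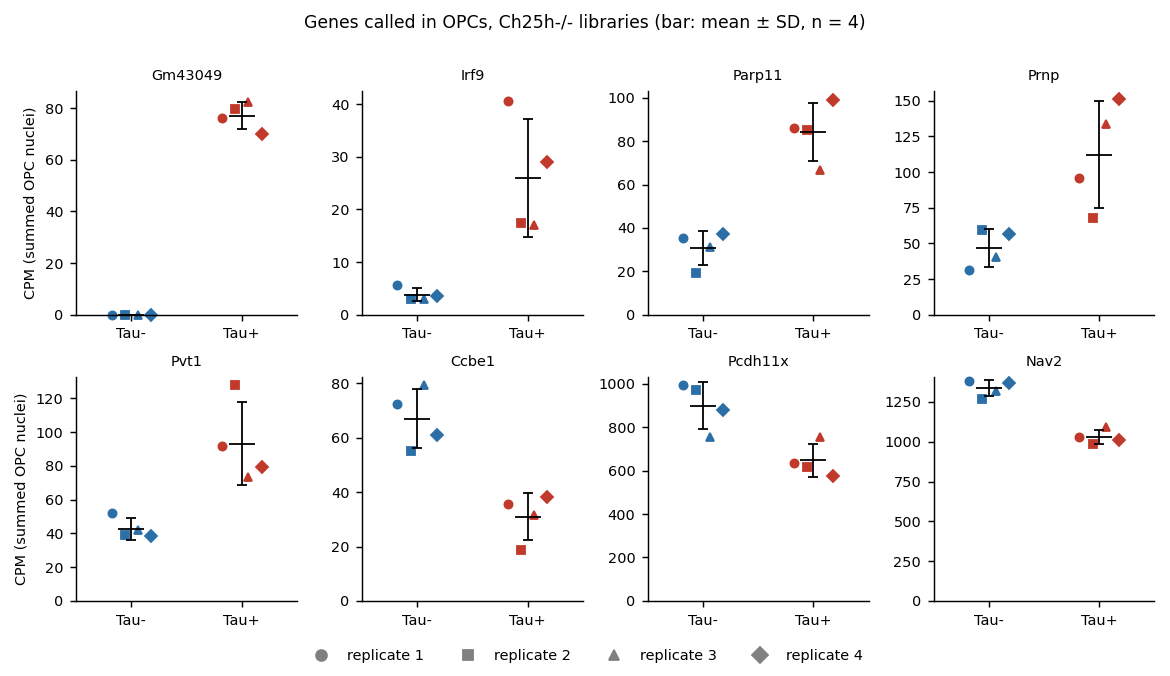
CPM of the 8 genes called in OPCs in each Ch25h-/- library (points, shape by replicate, y axes from 0), Tau- in blue and Tau+ in red, with the mean and SD in black. Irf9 spans 17.0 to 40.6 CPM in Tau+ and 2.98 to 5.59 in Tau-, and the groups of Pcdh11x meet at 754 CPM.

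Of the interferon-stimulated genes, most of them antiviral effectors or their regulators, 1 passed the test in OPCs. Of a list of 46, 15 had enough counts to be tested in OPCs. All 15 had a log2 fold change above 0, with a median of 1.15 against -0.00478 over all genes, and Irf9 was the member that passed. At an unadjusted p under 0.05 there were 12 of the 15, where 4.76% of all genes tested were, and the CPM of 8 did not overlap between the groups, where 3.27% of all genes did not. Genes of the list that passed the count filter only because of their level in Tau+ had to differ, so the counts of 15 describe the tested members and not the whole list.

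Eif2ak2, which encodes the double-stranded RNA sensor PKR, ran from 14.4 to 39.1 CPM in Tau+ and from 3.72 to 14.9 in Tau- (log2 fold change 1.41, edgeR adjusted p = 0.488). Ddx60, an RNA helicase that assists RIG-I, ran from 22.3 to 72.3 and from 3.72 to 8.98 (log2 fold change 2.87, edgeR adjusted p = 0.651). Usp18, the feedback inhibitor of the interferon receptor, ran from 6.56 to 38.6 and from 0 to 3.59 (log2 fold change 3.41, edgeR adjusted p = 0.798). The smallest differences of the list were those of Samd9l at 0.35 and Stat2 at 0.42 on the log2 scale.

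Summed over the 15 genes, the OPC level was 775, 653, 438 and 653 CPM in the Tau+ replicates 1 to 4 and 259, 291, 287 and 335 in the Tau- replicates. Tau+ replicate 3 was the lowest of its group and still above every Tau- library. The median log2 fold change was 1.29 in replicates 1 and 2 and 0.80 in replicates 3 and 4. In Ch25h+/+ the same 15 genes had a median of 0.73. The difference between the tau effects in Ch25h-/- and Ch25h+/+ passed the test for no gene in OPCs by edgeR or DESeq2. The lowest unadjusted p of that difference within the list were 0.0115 for Irf9, whose log2 fold change was 0.95 in Ch25h+/+, and 0.0427 for Rtp4, and all 15 had an adjusted p of 1.0.

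Microglia express many of the same genes, and free microglial RNA could enter any class. The 10 microglial markers summed to 235 to 266 CPM in the OPCs of Tau+ and 224 to 286 in those of Tau-, with 1 marker at 0 in every library, so the groups overlapped. In microglia themselves the tested interferon-stimulated genes summed to 3010 ± 1190 CPM in Tau+ and 1060 ± 95.6 in Tau- (SD, n = 4). The marker sums therefore do not measure how much of these genes microglial RNA would bring. The macrophage markers summed to 1.32 to 3.81 CPM in Tau+ and 4.3 to 13.4 in Tau-, and the mural markers to 154 to 202 and 80.2 to 127. The macrophage and mural sums did not overlap between the groups. The part of microglial, macrophage or mural RNA in the results was not tested.

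Antigen presentation genes had positive log2 fold changes in OPCs without passing the test. The 6 tested of 16 genes of MHC class I presentation were all above 0 with a median of 0.68, and of 0.79 in replicates 1 and 2 and 0.17 in replicates 3 and 4. H2-D1, a class I heavy chain, ran from 34.1 to 50.5 CPM in Tau+ and from 16.5 to 38.8 in Tau- (log2 fold change 0.81, edgeR adjusted p = 0.727). H2-K1 ran from 21 to 45.6 and from 14.4 to 18.6 (log2 fold change 0.96, edgeR adjusted p = 0.848). Of the disease-associated oligodendrocyte lineage genes 7 of 18 were tested, 5 of them above 0. Among these C4b, a complement component, was at 14.4 to 54.0 CPM in Tau+ and 3.59 to 18.6 in Tau- (log2 fold change 2.47, edgeR adjusted p = 0.752), and its highest Tau- value came from replicate 1. The free RNA moved with these genes: C4b was at 63.2 CPM in Tau+ and 16.5 in Tau- in the barcodes of at most 100 UMIs, H2-D1 at 83.4 and 38.6, and H2-K1 at 55.4 and 29.3. Its part in the OPC values was not tested.

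The genes that define OPCs and their maturation did not move as lists. Of 19 tested OPC identity genes 8 were above and 11 below 0, with a median log2 fold change of -0.0044. Of 14 tested differentiation genes 4 were above and 10 below, with a median of -0.05. None of either list was called. Targets of liver X receptors were mostly below 0, 1 above and 9 below 0 of 10, none called, with a median of -0.16 in Ch25h-/- and -0.12 in Ch25h+/+. Within Ch25h-/- it was -0.40 in replicates 1 and 2 and -0.03 in replicates 3 and 4. Only 2 of 24 cell cycle genes, Top2a and Mcm6, had enough counts to be tested, and neither was called, so division of OPCs could not be read at this depth.

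The promoters of the genes called in OPCs, in either direction, and of the interferon-stimulated genes were searched for the core of the interferon-stimulated response element, which is GAAA, any 2 bases, then GAAA again, on both strands. The RefSeq sequences (GRCm38.p6) run from 250 bases before to 50 bases after a start site. The motif was in 3.44% of 32851 such sequences, and 3.99% of the 27025 genes held it in at least 1 sequence. Of the 8 genes called in OPCs 4 matched by symbol (Prnp, Parp11, Nav2 and Irf9), and Parp11 alone held the motif, 44 bases before the first of its 2 start sites. Of the 15 interferon-stimulated genes tested 10 matched, and Stat2, Ddx58, Eif2ak2 and Ddx60 held it. A match describes these letters and not a bound site, and neither Irf9 sequence held them. The promoters of Parp11 and of the Eif2ak2 and Ddx60 genes described above are shown 5′ to 3′ because they hold the motif. Parp11 passed the test in OPCs, and Eif2ak2 and Ddx60 did not. The capitals mark the motif, which reads TTTCGATTTC in Parp11 because it lies on the opposite strand there.
Parp11, chr6:127446590-127446889, plus strand: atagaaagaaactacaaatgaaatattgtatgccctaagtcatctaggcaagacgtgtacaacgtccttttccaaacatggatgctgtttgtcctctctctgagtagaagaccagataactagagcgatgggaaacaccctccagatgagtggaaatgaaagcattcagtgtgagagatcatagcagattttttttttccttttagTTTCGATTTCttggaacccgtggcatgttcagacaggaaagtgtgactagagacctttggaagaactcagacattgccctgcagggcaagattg
Eif2ak2, chr17:78882523-78882822, minus strand: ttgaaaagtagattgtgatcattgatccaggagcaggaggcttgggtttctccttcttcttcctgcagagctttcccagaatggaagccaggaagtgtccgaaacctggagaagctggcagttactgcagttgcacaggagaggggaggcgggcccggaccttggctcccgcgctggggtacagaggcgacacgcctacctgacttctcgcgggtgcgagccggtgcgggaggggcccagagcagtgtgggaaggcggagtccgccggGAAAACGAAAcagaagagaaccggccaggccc
Ddx60, chr8:61927837-61928136, plus strand: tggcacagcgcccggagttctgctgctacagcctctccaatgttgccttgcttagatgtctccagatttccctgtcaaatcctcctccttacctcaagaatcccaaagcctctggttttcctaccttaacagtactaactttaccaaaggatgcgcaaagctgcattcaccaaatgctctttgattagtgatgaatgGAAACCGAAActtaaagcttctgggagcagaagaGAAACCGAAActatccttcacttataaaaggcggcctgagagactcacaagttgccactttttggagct

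In excitatory neurons outside the CA fields and dentate gyrus (called other excitatory neurons), 3 genes rose and none fell. All 3 were long non-coding RNAs that lie together on chromosome 3: Gm43049, Gm32754 (chr3:140904998-140917459) and 4930590L14Rik (chr3:140951876-140953247). They are 0.0182% of the 16451 genes tested by edgeR, and DESeq2 called 5. The class held 10915 nuclei, 562 to 2062 per library, so the depth was far above that of OPCs.

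Gm43049 was at 89.1, 86.8, 67.6 and 80.5 CPM in the Tau+ replicates of these neurons and at 0.0933, 0, 0 and 0 in the Tau- replicates. The only Tau- signal was 1 UMI in replicate 1, so the ratio of counts of 3760 has a 95% interval of 674 to 148000, which covers counting error only. Gm32754 was at 9.11, 8.7, 7.72 and 8.99 CPM in Tau+ and had no UMI in Tau-, at least 132-fold higher. 4930590L14Rik was at 2.33, 2.68, 1.93 and 2.09 CPM in Tau+ with none in Tau-, at least 34.6-fold higher. These 3 RNAs were also called in Ch25h+/+. Of 52 genes tested within 5 Mb of Gm43049 in this class no other was called, and the median log2 fold change of the 52 was -0.06. An unadjusted p under 0.05 was found for 11 of the 52, the 3 included, where 6.36% of all genes had one.

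Unc5c lies in the same stretch of chromosome 3 (chr3:141465216-141834924) and encodes a netrin receptor that steers growing axons. It was at 400, 368, 402 and 470 CPM in Tau+ and 712, 534, 564 and 892 in Tau-. Every Tau- library was higher, yet the log2 fold change of -0.72 ± 0.13 (SE) had an edgeR adjusted p of 0.184. It was called by DESeq2 (adjusted p = 0.00227) and, by edgeR, without Tau- replicate 2 (adjusted p = 0.0325). Among the other classes it fell in inhibitory neurons, from 1190 ± 133 to 727 ± 98.2 CPM (SD, n = 4; log2 fold change -0.71, edgeR adjusted p = 0.011), and in microglia (log2 fold change -1.47, edgeR adjusted p = 0.0365). The inhibitory call was lost without Tau+ replicate 2 or Tau- replicate 1 (edgeR adjusted p up to 0.0727). The microglial call held only without Tau+ replicate 3 or Tau- replicate 4 among the 8 fits that left out 1 library (up to 0.26). It was lower, without being called, in CA pyramidal neurons (log2 fold change -0.56, edgeR adjusted p = 0.0637) and dentate granule neurons (-0.37, edgeR adjusted p = 0.261). In OPCs its log2 fold change was -0.06 with an SE of 0.08. In Ch25h+/+ Unc5c was called in inhibitory neurons (log2 fold change -0.78, edgeR adjusted p = 0.00335). It was not called there in other excitatory neurons (-0.608, edgeR adjusted p = 0.693) or microglia (-0.593, edgeR adjusted p = 0.495).

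Other excitatory neurons are a mixture, and their make-up varied between libraries. Of 15 clusters in the class, cluster 22 was 21.7, 6.97, 0.168 and 0.0883% of it in the Tau+ replicates and 2.78, 14.7, 13.4 and 0% in the Tau- replicates. Cluster 37 ranged from 0 to 8.14%. The tau effect was therefore also fitted within the 8 clusters that had at least 20 nuclei in every library. Gm43049 rose in all 8. The share of genes called was 0.0196% in cluster 24, 0.0213% in cluster 11 and 0.04% in cluster 18, the clusters described next. In cluster 24 Unc5c was at 1320, 1050, 1140 and 1200 CPM in Tau+ and 2350, 2480, 2190 and 1970 in Tau-. The groups were far apart there, with a log2 fold change of -0.94 ± 0.09 (SE, edgeR adjusted p = 5.74e-08). Prnp rose in clusters 11 and 18, in the second from 31.8 to 70.5 CPM in Tau- to 97.6 to 153 in Tau+ (log2 fold change 1.44, edgeR adjusted p = 4.69e-05). In cluster 18 Efna5, an ephrin ligand, fell by 0.75 and Etv1, a transcription factor of deep-layer cortical neurons, fell by 0.75 on the log2 scale (edgeR adjusted p = 0.0151 and 0.0426).

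In the class as a whole Prnp was at 123, 109, 122 and 158 CPM in Tau+ and 60.2, 64.6, 84.7 and 98.1 in Tau-, with no overlap and an edgeR adjusted p of 0.647 (log2 fold change 0.74). Mapt, the mouse tau gene, was at 398, 434, 423 and 418 CPM in Tau+ and 337, 361, 369 and 362 in Tau-. Its log2 fold change of 0.23 ± 0.07 (SE) had an edgeR adjusted p of 0.717. Counts of a human tau transgene were not analysed here. After Unc5c, the genes with the smallest p in the lower direction are given as values only: Cmpk1, a nucleotide kinase, was at 13.5 to 19.2 CPM in Tau+ and 22.3 to 27.4 in Tau- (log2 fold change -0.57, edgeR adjusted p = 0.443), Dynll1 differed by -0.53 and Rheb by -0.58.

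Immediate early genes, which neurons transcribe within minutes of firing, had mostly negative log2 fold changes in other excitatory neurons, and none passed the test. Of 23 tested, 21 were below 0, with a median log2 fold change of -0.52 against -0.00764 over all genes, and 7 had an unadjusted p under 0.05, where 6.36% of all genes had. In Ch25h+/+ the median was 0.12. The nuclear receptor Nr4a3 was at 11.1 to 19.4 CPM in Tau+ and 14.5 to 63.7 in Tau- (log2 fold change -1.34, edgeR adjusted p = 0.717). Jun ran from 5.08 to 8.98 CPM in Tau+ and from 8.21 to 15.8 in Tau- (log2 fold change -0.80, edgeR adjusted p = 0.717). For 6 of the 23 the difference between the tau effects of the 2 Ch25h genotypes had an unadjusted p under 0.05 (3.18% of all genes tested in the class had one), the lowest 0.00396 for Jun, and every adjusted p was 1.0. The summed level of the 23 was 1000, 544, 434 and 714 CPM in Tau+ and 1090, 1370, 684 and 650 in Tau-, so the groups overlapped. The list's median was -0.71 in replicates 1 and 2 and -0.19 in replicates 3 and 4. In the same order it was -0.63 and -0.13 in inhibitory neurons, -0.61 and 0.09 in dentate granule neurons, and -0.49 and 0.27 in CA pyramidal neurons. Inhibitory neuron markers summed to 57.9 to 65.3 CPM in the other excitatory neurons of Tau+ and 66.3 to 73.9 in those of Tau-, with no overlap, and their part in the shifts of the immediate early, heat-shock and cholesterol genes of this class was not tested. In fibroblasts 10 of 13 tested members were below 0 as well, with a median of -0.72, and in vascular cells 12 of 14. The fibroblast median was -1.34 in replicates 1 and 2 and 0.02 in replicates 3 and 4, and the vascular one -1.69 and 0.16, so neither was below 0 in replicates 3 and 4.

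Heat-shock and stress genes were also mostly below 0 in these neurons, 15 of 18, none called, with a median of -0.21, and -0.11 in Ch25h+/+. The direction was not particular to these neurons, as the mean summed level of the list was lower in Tau+ in all 12 classes. It was 582 ± 90.2 CPM in Tau+ and 698 ± 92.4 in Tau- in inhibitory neurons, and 876 ± 90.8 and 1060 ± 130 in microglia (SD, n = 4). In other excitatory neurons Hspa8, a constitutive chaperone, was at 21.2 to 34.7 CPM in Tau+ and 37.1 to 72.3 in Tau- (log2 fold change -0.84, edgeR adjusted p = 0.665). In the barcodes of at most 100 UMIs Hspa8 was at 157 CPM in Tau+ and 318 in Tau-, so the free RNA differed in the same direction. Its part in the values of the nuclei was not tested.

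Genes of cholesterol synthesis and uptake were mostly below 0 in other excitatory neurons, in Ch25h-/- as in Ch25h+/+, and none passed the test. In other excitatory neurons 20 of 23 were below 0, with a median log2 fold change of -0.27 in Ch25h-/- and -0.36 in Ch25h+/+. Cyp51, the lanosterol demethylase, was at 38.6 to 41.4 CPM in Tau+ and 45.6 to 58.1 in Tau- (log2 fold change -0.34, edgeR adjusted p = 0.717). The summed level of the 23 genes was 464 ± 56.7 CPM in Tau+ and 558 ± 14.5 in Tau- (SD, n = 4). Tau+ replicate 1 lay inside the Tau- range and the other 3 below it. In OPCs, where 10 were tested, 4 were above and 6 below 0, with a median of -0.06. No member was called in other excitatory neurons or OPCs by edgeR.

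**Figure D2:**
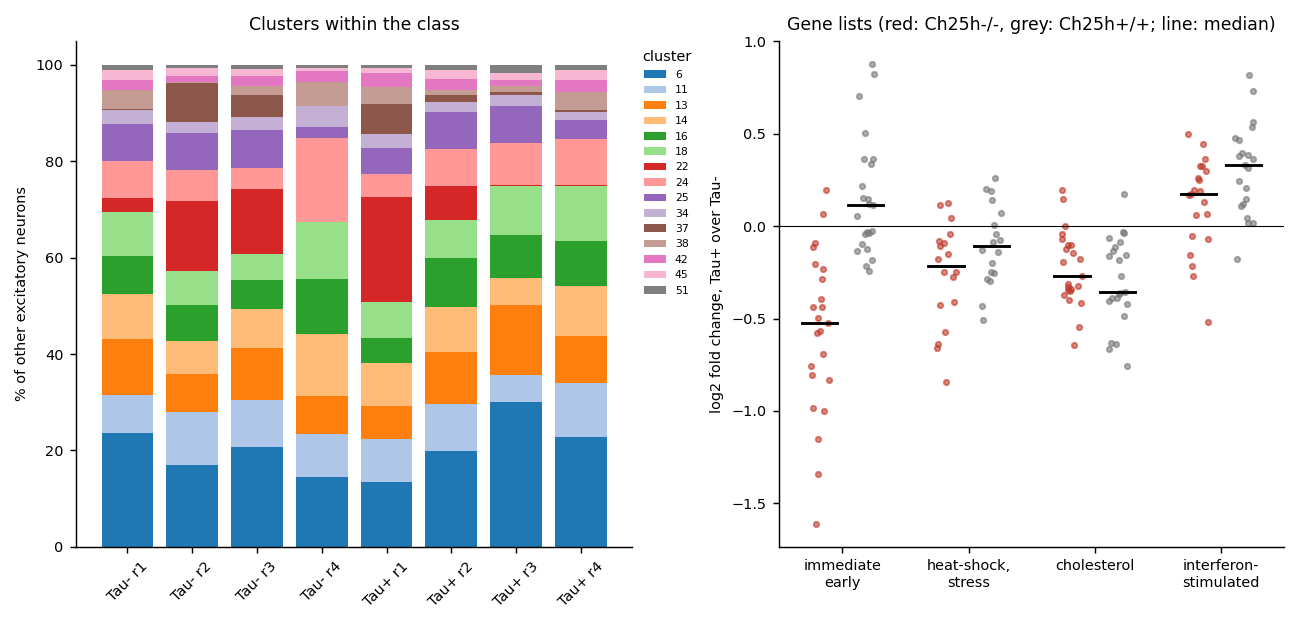
Left, the share of each of 15 clusters among the other excitatory neurons of each Ch25h-/- library (stacked bars, percent). Right, the log2 fold change of each tested member of 4 gene lists in that class, Ch25h-/- in red and Ch25h+/+ in grey, with medians as lines. Immediate early genes have a median of -0.52 in Ch25h-/- and 0.12 in Ch25h+/+.

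No gene was called in any vascular class in the main edgeR fit. Fits without a filter on low counts, and fits of replicates 1 and 2 only, did call genes in fibroblasts and in the pooled class, as listed in the closing section. Leaving out 1 library gave 0 to 1 in mural cells and in fibroblasts. The share called was 0.0% of 658 genes tested in endothelial cells, 0.0% of 725 in mural cells, 0.0% of 8403 in fibroblasts and 0.0% of 9601 in the 3 classes pooled (vascular cells). An unadjusted p under 0.05 was found for 36 genes (5.47%), 30 (4.14%), 429 (5.11%) and 489 (5.09%), and DESeq2 called 0 in each of the 4. The classes were small: 192 endothelial nuclei (10 to 45 per library), 223 mural nuclei (17 to 44) and 1600 fibroblasts (35 to 378). In simulated counts with the means of these classes, 200 genes with on average at least 10 UMIs per library were changed, some 2-fold and the others 4-fold. These were 200 of 658 genes in endothelial cells and 200 of 725 in mural cells, so recovery where a smaller share of genes changes was not simulated. Genes changed 2-fold were recovered in 24% of cases in endothelial cells, 50% in mural cells, 43% in fibroblasts and 29% in the pooled class. Genes changed 4-fold were recovered in 85 to 93% of cases in these classes.

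In endothelial nuclei the 10 endothelial markers, by which the class was named, summed to 15600 to 23600 CPM. Mural markers summed to 2260 to 3680 CPM there in Tau+ and 2660 to 4370 in Tau-, and CA pyramidal markers to 2820 to 3890 and 2580 to 4880. Bsg, which encodes basigin, a chaperone of lactate transporters at the blood-brain barrier, had the smallest p among the genes with at least 10 UMIs per library on average. Arap2, below that level, had a smaller one (log2 fold change 1.9, edgeR adjusted p = 0.389). Bsg was at 9670, 9430, 9180 and 14200 CPM in Tau+ and 4120, 5260, 6480 and 4440 in Tau-. The groups did not overlap, the log2 fold change was 1.07 ± 0.28 (SE), and the edgeR adjusted p was 0.389. Pltp, a phospholipid transfer protein, was at 2870, 2100, 3280 and 2780 CPM in Tau+ and 1370, 821, 1920 and 1420 in Tau- (log2 fold change 0.96, edgeR adjusted p = 0.562). Its Tau+ libraries were again all higher.

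Apoe, the main lipid carrier of the brain, was at 2010, 1010, 820 and 851 CPM in Tau+ endothelial cells and 2840, 2460, 2640 and 1970 in Tau- ones. Only Tau+ replicate 1 reached the Tau- range, and the edgeR adjusted p was 0.59 (log2 fold change -1.0). Free RNA held Apoe at 1930 CPM in the Tau+ barcodes of at most 100 UMIs and 2780 in the Tau- ones, the same direction as in the nuclei. Its part in these values was not tested. Cldn5, the tight junction protein of these cells, was at 2410, 3570, 3120 and 3250 CPM in Tau+ and 3820, 1480, 3520 and 3520 in Tau-, a log2 fold change of -0.05 ± 0.31 (SE). Of 16 blood-brain barrier genes tested 11 were above and 5 below 0, with a median of 0.19 against -0.02 over all genes and -0.13 in Ch25h+/+.

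In mural cells the library Tau- replicate 2 had too few nuclei (17) and was left out of the fit, which leaves 3 Tau- libraries. The contractile and pericyte genes were even, 6 above and 6 below 0 of 12 tested, with a median of -0.01. Among genes with at least 10 UMIs per library on average, the smallest p values belonged to the mitochondrial transcripts mt-Nd2 and mt-Atp6. Klf7, below that level, had a p between theirs (log2 fold change -1.48, edgeR adjusted p = 0.816). Of the mitochondrial transcripts mt-Atp6, a subunit of ATP synthase, was at 928, 1360, 1470 and 597 CPM in Tau+ and 1990, 1600 and 2430 in Tau-, a log2 fold change of -0.85 (edgeR adjusted p = 0.816). In Ch25h+/+ its log2 fold change was -1.41 (edgeR adjusted p = 0.000951). Mitochondrial RNA does not come from the nucleus, and the barcodes of at most 100 UMIs held mt-Atp6 at 2000 CPM in Tau+ and 2560 in Tau-. The part of free RNA in these values was not tested. Gjc1, the gap junction protein of mural cells, was at 302 to 726 CPM in Tau+ and 730 to 1350 in Tau- (log2 fold change -0.79, edgeR adjusted p = 0.957).

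In fibroblasts the pair of genes with the smallest p, Rcan2 and Greb1, had negative log2 fold changes in Ch25h-/- and positive ones in Ch25h+/+, without passing the test. Rcan2, a regulator of calcineurin, was at 111, 156, 122 and 216 CPM in Tau+ and 286, 132, 374 and 243 in Tau-, a log2 fold change of -0.98 (edgeR adjusted p = 0.478). Tau- replicate 2, the library with 35 fibroblasts, lay inside the Tau+ range. In Ch25h+/+ the log2 fold change of Rcan2 was 0.83, and the edgeR adjusted p of the difference between the effects was 0.0611. Greb1, an oestrogen-responsive gene, was at 3.08, 24.2, 11.6 and 24.0 CPM in Tau+ and 46.9, 33.1, 64.7 and 48.3 in Tau-, with no overlap (log2 fold change -2.01, edgeR adjusted p = 0.478). Its log2 fold change in Ch25h+/+ was 1.94, with an adjusted p of 0.149 for the difference. Slc6a6, the taurine transporter, was at 128, 161, 116 and 168 CPM in Tau+ and 65.7, 99.3, 73.6 and 58.7 in Tau- (log2 fold change 1.05, edgeR adjusted p = 0.594). The difference between tau effects passed the threshold for 0 genes by edgeR and 1 by DESeq2 in fibroblasts.

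Interferon-stimulated genes in fibroblasts lay above 0 in Ch25h-/- and around 0 in Ch25h+/+. Of 22 tested, 20 were above 0 in Ch25h-/-, with a median log2 fold change of 0.65, and 9 had an unadjusted p under 0.05, where 5.11% of all genes had. In Ch25h+/+ the median was -0.11. The summed level of the 22 genes in Ch25h-/- was 2180, 1860, 1150 and 1420 CPM in Tau+ and 1150, 1290, 1310 and 1230 in Tau-, so the groups overlapped. Oasl2, an antiviral oligoadenylate synthetase-like protein, was at 69.5 to 165 CPM in Tau+ and 46.6 to 116 in Tau- (log2 fold change 0.95, edgeR adjusted p = 0.693). For 7 of the 22 the difference between the tau effects had an unadjusted p under 0.05, where 5.71% of all genes had, and the lowest adjusted p was 0.802. The median was 0.84 in replicates 1 and 2 and -0.08 in replicates 3 and 4. Microglial markers summed to 48.2 to 350 CPM in the fibroblasts of Tau+ and 57.9 to 97.6 in those of Tau-. T cell markers summed to 53.5 to 89.9 CPM in Tau+ and 92 to 249 in Tau-, which did not overlap, and oligodendrocyte markers to 230 to 510 and 131 to 234. The part of these markers was not tested.

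The vascular classes were also pooled. Of 27 interferon-stimulated genes tested 25 were above 0, with a median of 0.69 in Ch25h-/- and -0.02 in Ch25h+/+, and of 0.90 in replicates 1 and 2 and 0.24 in replicates 3 and 4 of Ch25h-/-. Rtp4, an interferon-induced regulator, ran from 16.3 to 55.8 CPM in Tau+ and from 0 to 13.4 in Tau- (log2 fold change 2.07, edgeR adjusted p = 0.96). The blood-brain barrier genes were 22 above and 3 below 0 of 25, with a median of 0.43 in Ch25h-/- and -0.39 in Ch25h+/+. Their median was -0.20 in replicates 1 and 2 and 0.91 in replicates 3 and 4, so the direction turned between the sides of the split. Of 23 genes of VEGF, Notch and angiopoietin signalling 20 were above 0 with a median of 0.51, and of 0.08 and 0.57 in the same order. The make-up of the pool moved with these. Endothelial nuclei were 13.6, 6.42, 15.7 and 14.3% of it in Tau+ and 10.9, 16.1, 4.47 and 7.46% in Tau-. The part of this make-up in the pooled values was not tested, and within endothelial cells alone the barrier genes had a median of 0.19.

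**Figure D3:**
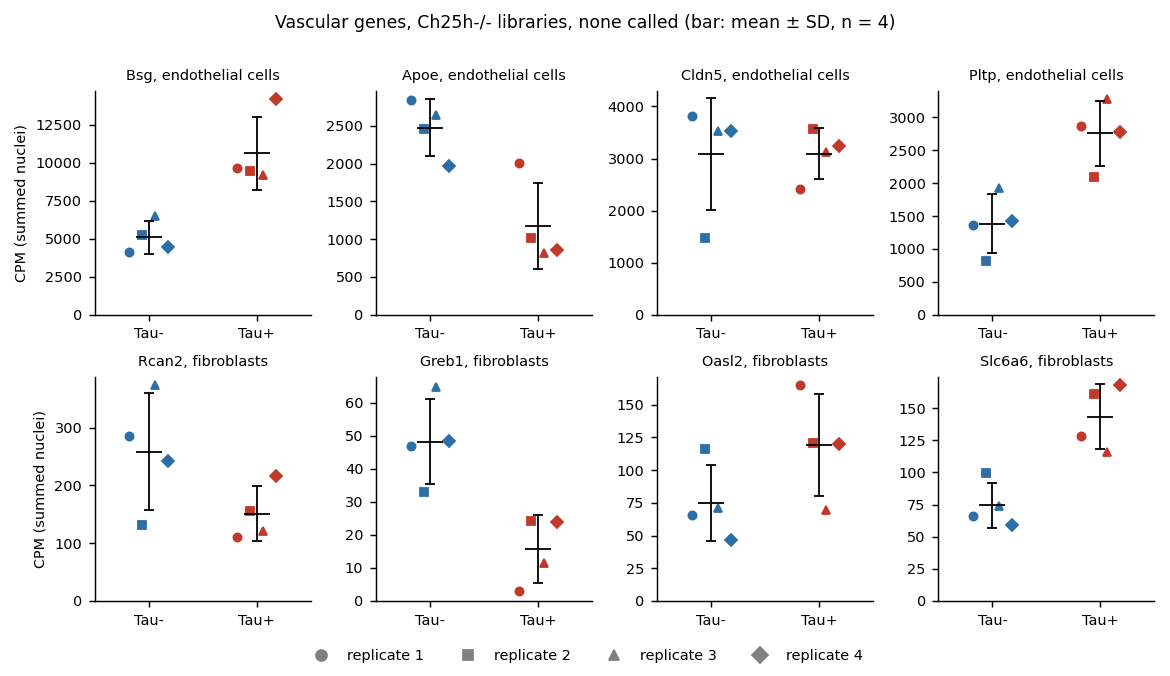
CPM of 4 genes in endothelial cells (top) and 4 in fibroblasts (bottom) in each Ch25h-/- library (points, shape by replicate, y axes from 0), with mean and SD in black. Bsg spans 9180 to 14200 CPM in Tau+ and 4120 to 6480 in Tau-, Cldn5 overlaps fully, and none of these genes passed the test.

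The remaining classes place these results. Microglia had the most called genes of the 12 classes in the main edgeR fit, with 100 genes higher (1.18%) and 33 lower (0.391%), together 1.57% of 8448 tested. By DESeq2 the order turned, with 241 genes called in CA pyramidal neurons and 209 in microglia. Among the microglial genes called by edgeR, Axl, a receptor of dying cells, was at 132, 77.7, 15.8 and 111 CPM in Tau+ and 0, 1.92, 3.97 and 0 in Tau-. Tau+ replicate 3 was far below the other 3, and the count of called genes was 356 without it and 22 without Tau+ replicate 1. Oasl2 was at 145, 94.5, 15.8 and 156 CPM in Tau+ microglia and 2.51, 0, 0 and 0 in Tau- microglia. The calls of Axl and Oasl2 held without Tau+ replicate 3 and were lost without any other single library, at edgeR adjusted p up to 0.154 and 0.149. Macrophage markers summed to 31.5 to 356 CPM in Tau+ microglia and 3.78 to 9.66 in Tau- microglia, with 3 of the 7 at 0 in every library. Oligodendrocyte markers summed to 324 to 476 CPM and 219 to 285, and T cell markers to 5.01 to 10.1 and 0 to 4.83. None of these ranges overlapped between the groups, and their part in the counts was not tested. In astrocytes 6 genes rose (0.0467% of 12839), and 1026 genes (7.99%) had an unadjusted p under 0.05. Among the 6 was the protease inhibitor A2m at 60.7, 62.3, 29.2 and 66.4 CPM in Tau+ and 7.91, 3.34, 16.2 and 6.9 in Tau- (log2 fold change 2.58, edgeR adjusted p = 0.01). Without Tau+ replicate 3 the astrocyte count was 116, and without Tau- replicate 4 it was 1 and A2m was not called (edgeR adjusted p = 0.0732). With a term for the split of replicates the count was 297 in microglia and 26 in astrocytes.

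The counts in the other neuronal classes moved with the fit. CA pyramidal neurons had 7 genes higher (0.0429%) and 19 lower (0.116%), together 0.159% of 16317, between 4 and 110 when 1 library was left out: 110 without Tau- replicate 2 and 4 without Tau- replicate 3. The count was 241 by DESeq2 and 122 with a term for the split of replicates, along which all 16 libraries of the class were placed. Sncaip, which encodes a partner of alpha-synuclein, was at 1.42, 1.79, 2.63 and 1.78 CPM in Tau+ CA neurons and 5.7, 7.68, 12.9 and 7.19 in Tau-. Its log2 fold change was -2.11 ± 0.28 (SE, edgeR adjusted p = 0.00263), it held without any 1 library, and in Ch25h+/+ its log2 fold change was -0.09. The difference between tau effects passed the test for 0 genes in this class by edgeR, Sncaip included (lowest edgeR adjusted p over all genes 0.678), and DESeq2 called 2 genes. Dentate granule neurons had 6 higher (0.0398%) and 8 lower (0.053%), together 0.0928% of 15094. The count was 74 by DESeq2 and 3 with the 8 Ch25h-/- libraries alone. Leaving out 1 library gave 4 (without Tau- replicate 3) to 32 (without Tau+ replicate 3). The metalloprotease Adamts6 was at 41.0, 24.4, 17.8 and 33.1 CPM in Tau+ and 11.9, 9.99, 7.15 and 9.58 in Tau- (log2 fold change 1.6, edgeR adjusted p = 0.00931, and 0.0596 without Tau- replicate 3). Inhibitory neurons had 3 higher (0.0209%) and 1 lower (0.00695%), together 0.0278% of 14387, with 789 genes (5.48%) at an unadjusted p under 0.05. The count was 2 to 6 when 1 library was left out. Inhibitory neuron markers did not overlap between the groups in these 3 classes, at 24.6 to 27.4 CPM in Tau+ and 29.6 to 41.1 in Tau- in CA pyramidal neurons, 1620 to 1680 and 1790 to 2010 in dentate granule neurons, and 11800 to 12600 and 12800 to 13300 in inhibitory neurons. Their part in these counts was not tested.

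Oligodendrocytes, the progeny of OPCs, had no gene called in the main edgeR fit (0.0% of 11866), with 935 genes (7.88%) at an unadjusted p under 0.05 and 12 called by DESeq2. Leaving out 1 library gave 0 to 3. All 16 libraries of the class were placed along the split of replicates, and edgeR with a term for it did call genes. Prnp rose in OPCs and in dentate granule, CA pyramidal and inhibitory neurons, with log2 fold changes of 1.22, 0.76, 0.85 and 0.77 by edgeR. Leaving out 1 library at a time, the call held in all 8 fits in OPCs, in 7 in CA pyramidal neurons (lost without Tau- replicate 3, adjusted p = 0.058), in 5 in dentate granule neurons (lost without Tau+ replicate 4 or Tau- replicates 1 or 3, up to 0.0775) and in 3 in inhibitory neurons (up to 0.159). It was not called in astrocytes (-0.09), microglia (0.05), fibroblasts (-0.30) or oligodendrocytes (0.49, edgeR adjusted p = 0.403). Whether the effect on Prnp differed between classes was not tested. In Ch25h+/+ the log2 fold changes of Prnp in OPCs and in dentate granule, CA pyramidal and inhibitory neurons were 0.905, 0.637, 0.598 and 0.659, none called by edgeR. The labels do not name the tau transgene or its promoter, and the source of the Prnp UMIs was not tested.

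Across classes, the interferon-stimulated genes lay above 0 in Ch25h-/- with medians of 1.95 in astrocytes, 1.66 in dentate granule neurons, 1.42 in microglia, 1.15 in OPCs, 0.92 in oligodendrocytes, 0.69 in vascular cells, 0.53 in CA pyramidal neurons, 0.32 in inhibitory neurons and 0.17 in other excitatory neurons. The lists tested differ between classes, from 15 to 34 genes, so these medians are not over the same genes. In every class a member that passed the count filter only through Tau+ had to lie above 0, so the medians describe the members tested and support nothing. In Ch25h+/+ the medians were 1.44, 0.62, 1.11, 0.73, 0.84, -0.02, 0.64, 0.17 and 0.33 in the same order. Tau+ replicate 3 had the lowest summed level of its group in every one of these classes except other excitatory neurons. In astrocytes it was at 422 CPM, where the other 3 were at 1020 to 1420 and the Tau- libraries at 302 to 433. It lay inside the Tau- range also in dentate granule neurons (70.6 CPM, Tau- 69.1 to 73.6) and CA pyramidal neurons (117 CPM, Tau- 108 to 118). In inhibitory neurons it was at 93.8 CPM, below the Tau- libraries at 94 to 100. In microglia it was at 1490 CPM, between the other Tau+ libraries at 2670 to 4120 and the Tau- libraries at 1010 to 1200.

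**Figure D4:**
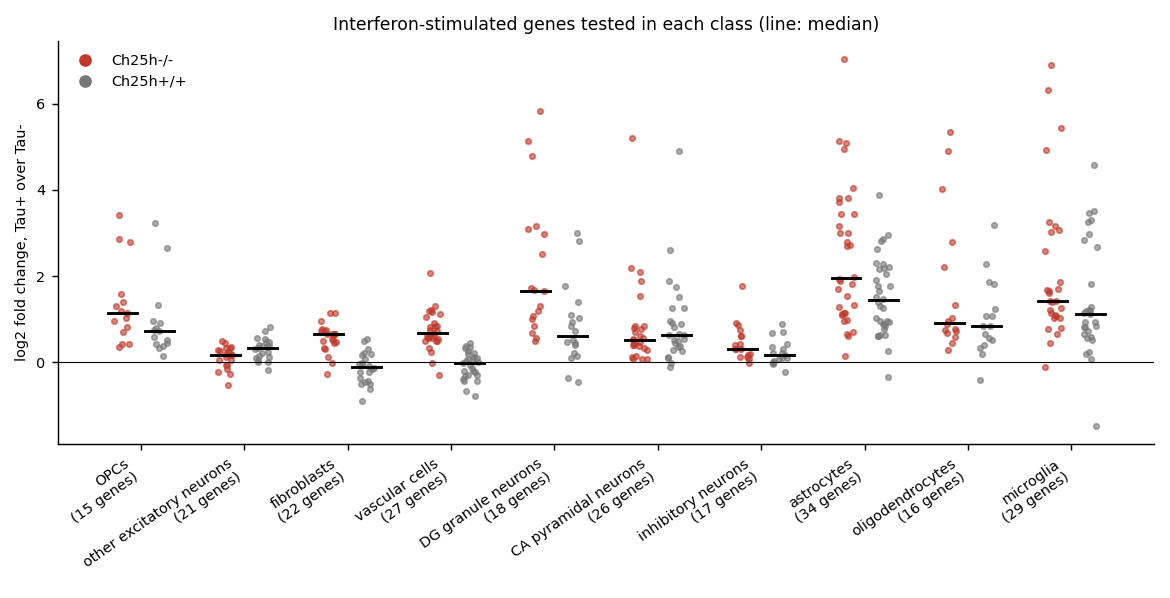
Log2 fold change (Tau+ over Tau-) of each interferon-stimulated gene tested in a class, Ch25h-/- in red and Ch25h+/+ in grey, with medians as lines and the number of genes under each class. OPCs have medians of 1.15 and 0.73, and fibroblasts 0.65 and -0.11.

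The shares of the classes gave no difference that passed adjustment over the 13 classes tested, which include vascular cells beside their 3 parts. With 4 libraries per group the smallest possible p is 0.0286 in the exact permutation test. It passes this adjustment only where many classes reach it together, so the adjusted test could not decide for single classes. Shares are of named nuclei in a library and sum to a whole, so a class can fall because another rises. OPCs were 3.08, 2.73, 3.33 and 3.44% of named nuclei in Tau+ and 2.29, 3.07, 2.81 and 3.75% in Tau- (exact two-sided permutation test over 70 arrangements, p = 0.657). Other excitatory neurons were 17.9% ± 4.07 in Tau+ and 17.5% ± 7.81 in Tau- (SD, n = 4; exact permutation p = 0.914). Fibroblasts were 1.84% ± 0.93 and 3.42% ± 2.06 (SD, n = 4; exact permutation p = 0.229), and the ranges of the endothelial and mural shares overlapped between the groups. Newly formed oligodendrocytes were 0.37% ± 0.193 in Tau+ and 0.168% ± 0.035 in Tau-, and microglia 5.795% ± 1.133 and 3.764% ± 1.154 (SD, n = 4). The groups overlapped in both classes (exact permutation p = 0.0571 each, 0.149 adjusted). In Ch25h+/+ the means were 0.394% in Tau+ and 0.205% in Tau-, and 5.577% and 3.485%, in the same order.

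Oligodendrocytes had the widest difference, at 19.0, 22.5, 25.2 and 25.9% in Tau+ and 18.4, 14.7, 6.64 and 7.66% in Tau-. The groups did not overlap, but the highest Tau- library was close to the lowest Tau+ library. Dentate granule neurons were at 12 to 17.3% in Tau+ and 18.8 to 31.4% in Tau-, and inhibitory neurons at 5.91 to 7.06% and 7.26 to 8.05%, without overlap. Oligodendrocytes, dentate granule neurons and inhibitory neurons each had the smallest p that 4 against 4 can give in the exact permutation test, 0.0286, and 0.124 after Benjamini-Hochberg adjustment. What part of the hippocampus each library sampled is not given in the labels, and its part in these shares was not tested.

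**Figure D5:**
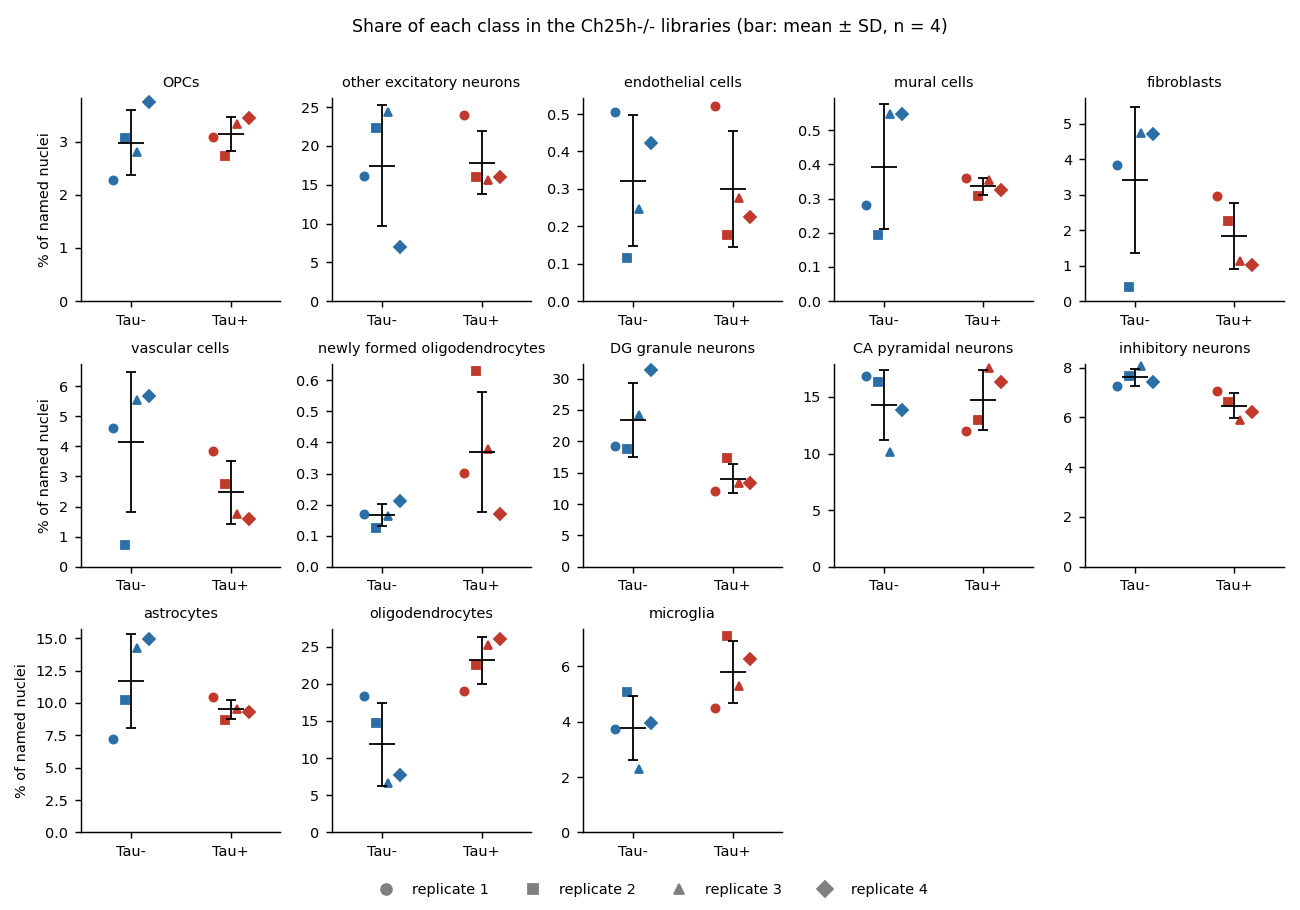
Share of named nuclei (percent, y axes from 0) in 13 classes in each Ch25h-/- library, Tau- in blue and Tau+ in red, with mean and SD in black (vascular cells are the sum of the endothelial, mural and fibroblast classes). Oligodendrocytes span 19.0 to 25.9% in Tau+ and 6.64 to 18.4% in Tau-, and OPCs overlap.

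The difference between the tau effects in Ch25h-/- and Ch25h+/+ passed the test for no gene in any of the 12 classes in the main edgeR fit. The lowest edgeR adjusted p was 0.0611 in fibroblasts and 0.112 in vascular cells. The simulated data covered the tau effect in Ch25h-/- only, so how often such a difference would be found was not tested. Without a filter on low counts, where more genes were tested, 123 genes passed in vascular cells, 37 in fibroblasts, 21 in endothelial cells and 1 in OPCs. With a term for the split of replicates there was 1 in fibroblasts and 1 in dentate granule neurons. At an unadjusted p under 0.05 there were 338 in OPCs (3.56% of genes tested), 523 in other excitatory neurons (3.18%) and 48 in endothelial cells (7.29%). There were 31 in mural cells (4.28%), 480 in fibroblasts (5.71%) and 772 in vascular cells (8.04%). DESeq2 called 2 genes in CA pyramidal neurons, 1 in fibroblasts and 6 in vascular cells. Of the 8 genes called in OPCs of Ch25h-/- all had the same sign in Ch25h+/+, and Gm43049 was called in both. Over all genes tested in OPCs 52.6% had the same sign. In vascular cells, where none was called, the share with the same sign was 46.9%. The Ch25h-/- and Ch25h+/+ contrasts share no libraries.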

How the data were processed

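The deposited files hold raw UMI counts per gene and barcode, unfiltered, from 10x 3′ v3.1 libraries of hippocampal nuclei, per the file headers and the labels' protocols. The submitters' processing notes name Cell Ranger 3.1.0, Seurat and mm10, while the file headers name another Cell Ranger release. Whether intronic reads were counted is not given in the sources used here. The authors' deposited counts were used without further normalization by them.

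Barcodes with at least 500 UMIs, 300 genes and at most 5% mitochondrial UMIs were kept. Doublets were removed by similarity to simulated doublets, at 0.8% per 1000 nuclei. All 16 libraries were clustered together (3000 variable genes, 50 principal components, 20 neighbours, leidenalg 0.10.2, resolution 1.0) into 58 clusters. The microglial cluster was then split once more. A cluster took a class name only from at least 3 of that class's markers, and 17 of the clusters after that split stayed unnamed, which held 6.25 to 10.0% of the nuclei of a library. Marker genes also shaped the clusters, so they name classes and are no finding.

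Counts were summed per library and class. Libraries with fewer than 20 nuclei of a class were left out. Endothelial cells needed a rule of 10 nuclei, chosen after seeing the data, because the first rule left 2 libraries in each Ch25h-/- group. The sums were tested with edgeR 4.0.16 in R 4.3.3 (TMM scaling, filterByExpr, robust quasi-likelihood test, 1 mean per genotype group over all libraries, Benjamini-Hochberg adjustment over all genes tested in a class, threshold 0.05). CPM of single genes and of summed gene lists divide by the UMIs of the genes tested in that class and library, scaled by TMM. Marker sums and the values of barcodes of at most 100 UMIs divide by all UMIs. Where few genes were tested, as in endothelial (658) and mural cells (725), gene CPM are therefore larger than on the scale of all UMIs. The difference between tau effects is the interaction of the 4 group means. Shares were compared with an exact permutation test in scipy 1.17.1. DESeq2 1.42.0 was an alternative, as were no filter on low counts, the 8 Ch25h-/- libraries alone, a term for the split of replicates, at least 1000 UMIs per nucleus and leaving out each library. The test was tested on simulated data for each class.

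Genes named in the text are those called with the largest fold change and on average 10 or more UMIs in a library, up to 6 in each direction (3 in the classes outside OPCs, other excitatory neurons and the vascular classes). Where fewer were called, the 5 with the smallest p were taken as values only. To these come called list members, up to 4 members of a list with the smallest p, and a fixed set of genes of interest. Ddx60, Usp18, Samd9l, Stat2 and Rtp4 were named from the interferon list after their values were seen, as were Top2a, Efna5, Etv1, Arap2 and Klf7. The members, gene lists and markers were chosen with earlier results of these data known. Coordinates are from GENCODE release 21 for mouse (GRCm38), and promoters from RefSeq. No 2 libraries agreed within sampling noise: the chi-square statistic per degree of freedom between libraries of a group was 7.76 to 54.3. The values of 1 member of the interferon list are not reported here.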

Additional observations from a re-analysis of the deposited data

Results flagged for a closer look

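In 19 of 309 groups of 4 libraries, 1 library stood apart from the other 3 by Dixon's test at the 95% level. Chance flags about 1 in 20 groups.

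In the classes described most closely, the OPCs of Tau- replicate 1 had C4b at 18.6 CPM where the other 3 had 3.59 to 4.49. In other excitatory neurons Gm43049 was at 0.0933 CPM in Tau- replicate 1 and 0 in the others, and the share of the class was 24.0% in Tau+ replicate 1 against 15.6 to 16%. Endothelial cells had 5 such values. Bsg was at 14200 CPM in Tau+ replicate 4 (others 9180 to 9670), and Tanc2 was at 0 there (others 366 to 410). Apoe was at 2010 CPM in Tau+ replicate 1 (others 820 to 1010). Tau- replicate 2, with 10 endothelial nuclei, had Cdc42bpa at 1480 CPM (others 1120 to 1180) and Cldn5 at 1480 (others 3520 to 3820). In fibroblasts Mapt was at 71.9 CPM in Tau+ replicate 4 (others 21.5 to 26.9), Pdgfra at 371 in Tau+ replicate 3 (others 226 to 240) and Unc5c at 1310 in Tau- replicate 2 (others 295 to 463). In vascular cells Crispld2 was at 44.7 CPM in Tau- replicate 2 (others 90.9 to 99.1).

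Among the remaining classes, Gm32754 was at 0.112 CPM in dentate granule neurons of Tau- replicate 2 and 0 in the others. Mapt was at 302 CPM in dentate granule neurons of Tau+ replicate 1 (others 356 to 363), at 324 in its inhibitory neurons (others 400 to 404) and at 406 in CA pyramidal neurons of Tau- replicate 4 (others 330 to 333). A2m was at 29.2 CPM in astrocytes of Tau+ replicate 3 (others 60.7 to 66.4). In microglia Oasl2 was at 2.51 CPM in Tau- replicate 1 and H2-Q7 at 2.57 in Tau- replicate 4, with 0 in the others of the group.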

How the results depend on the processing

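No paired analysis was possible because the labels give no replicate numbers, and those used here are in accession order. Values below are counts of genes called, and the cause of each move was not tested. In OPCs (8 called) there were 29 without a filter on low counts, 15 with the 8 Ch25h-/- libraries alone, 20 in replicates 1 and 2 and 4 in replicates 3 and 4. Other excitatory neurons (3) gave 5 by DESeq2, 8 in replicates 3 and 4, and 1 each within clusters 16, 34 and 6. Mural cells (0) gave 3 in replicates 1 and 2, where Ch25h-/- Tau- had 1 library, assumed to vary like the other groups. Fibroblasts (0) gave 18 without a filter, 1 with 8 libraries, 31 in replicates 1 and 2 and 3 in replicates 3 and 4. Vascular cells (0) gave 24 without a filter, 12 in replicates 1 and 2 and 4 in replicates 3 and 4. Dentate granule neurons (14) gave 74 by DESeq2, 3 with 8 libraries, 56 and 4 in replicates 1 and 2 and in 3 and 4. CA pyramidal neurons (26) gave 241 by DESeq2, 53 without a filter, 122 with a term for the split, 10 with 8 libraries, 4 and 247 in replicates 1 and 2 and in 3 and 4. Inhibitory neurons (4) gave 7 with the term, 2 with 8 libraries and 12 in replicates 3 and 4. Astrocytes (6) gave 113 by DESeq2, 27 without a filter, 26 with the term, 11 with 8 libraries, 67 and 1 in replicates 1 and 2 and in 3 and 4. Oligodendrocytes (0) gave 12 by DESeq2, 16 without a filter, 8 with the term, 2 with 8 libraries and 30 in replicates 1 and 2. Microglia (133) gave 209, 433, 297 and 204 under these 4, and 391 and 1 in replicates 1 and 2 and in 3 and 4.

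For the difference between tau effects (0 called), no filter gave 1 in OPCs, 21 in endothelial cells, 37 in fibroblasts and 123 in vascular cells. DESeq2 gave 1 in fibroblasts, 6 in vascular cells and 2 in CA pyramidal neurons. The term for the split gave 1 in fibroblasts and 1 in dentate granule neurons, and nuclei of at least 1000 UMIs gave 1 in fibroblasts. For the tau effect in Ch25h-/-, leaving out 1 library gave 3 to 11 genes called in OPCs, 3 to 4 in other excitatory neurons, 0 to 1 in mural cells and in fibroblasts, 4 to 32 in dentate granule neurons, 4 to 110 in CA pyramidal neurons, 2 to 6 in inhibitory neurons, 1 to 116 in astrocytes, 0 to 3 in oligodendrocytes and 22 to 356 in microglia. For the difference it gave 0 to 2 in endothelial cells and dentate granule neurons, 0 to 1 in fibroblasts and CA pyramidal neurons, and 0 to 3 in vascular cells. Of 10185 values of single genes under alternatives 9738 kept their side of the threshold, 277 lost it, 170 gained it and 0 turned direction after being called. Of 143 share differences 14 changed sign. Their lowest adjusted p in the exact permutation test was 0.0929, and the limit given above for single classes holds here too. The replicates-only fits and the 10-nuclei rule were chosen after seeing the data. Recovery of simulated 2-fold changes was lowest in endothelial cells, at 24%.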

Other observations

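Genes of cholesterol synthesis and uptake took different sides in different classes, with no member called by edgeR. In CA pyramidal neurons 22 of 23 tested were below 0 in Ch25h-/- Tau+, with a median log2 fold change of -0.425, and in astrocytes 22 of 23, with a median of -0.30. In oligodendrocytes 19 of 23 were above 0, with a median of 0.19 in Ch25h-/- and -0.12 in Ch25h+/+. Their summed level in oligodendrocytes was 596 ± 42.9 CPM in Tau+ and 515 ± 58.9 in Tau- (SD, n = 4), in CA pyramidal neurons 351 ± 38.0 and 446 ± 28.9, and in astrocytes 912 ± 215 and 1160 ± 261. In Ch25h+/+ the summed level was 528 ± 77.8 CPM in Tau+ and 570 ± 86.8 in Tau- in oligodendrocytes, 359 ± 64.7 and 444 ± 39.9 in CA pyramidal neurons, and 757 ± 207 and 1130 ± 86.5 in astrocytes. Markers of other cell types that did not overlap between the groups were the astrocyte markers in oligodendrocytes (238 to 277 CPM in Tau+, 282 to 394 in Tau-), the inhibitory neuron markers in CA pyramidal neurons (24.6 to 27.4 and 29.6 to 41.1) and the Cajal-Retzius cell markers in astrocytes (36.7 to 44 and 18.8 to 36.6). Their part in these values was not tested, nor was whether the differences differ between classes.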
